A study of Mus musculus with 6 samples.

Results

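Kruppel-like factors are transcription factors that bind GC-rich DNA and CACCC boxes through zinc fingers near the carboxyl end of the protein. The 10 genes described here were Klf2, Klf3, Klf4, Klf5, Klf6, Klf7, Klf9, Klf10, Klf13 and Klf15, chosen by gene symbol from 18193 genes on the array, and 34 of the 45101 probe sets carried one of these symbols. The tumor group was 3 granulosa cell tumors, described in the design text as independent, from mice mutant for Smad1, Smad5 and Smad8, the transcription factors that carry bone morphogenetic protein signals; these mice received no treatment. The wild-type group was 3 samples of isolated granulosa cells, the somatic cells around the oocyte, from 21-day-old C57BL/6J;129S5/SvEvBrd females. Those females had been injected with PMSG, a gonadotropin preparation that drives follicle growth, 44 to 46 hours before collection, and each wild-type sample pooled 2 to 3 of them. For the tumor mice, the sources used here give no strain, age, sex or alleles and do not say in which cells the genes were mutated.

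The family divides by partner proteins. Klf3, like Klf8 and Klf12, represses genes through the corepressor CtBP. Klf2, Klf4, Klf5, Klf6 and Klf7 mostly activate genes with the help of acetyltransferases, while Klf9, Klf10 and Klf13 recruit the Sin3 repressor complex, and Klf15 stands outside these groups. Several members are early-response genes whose transcripts climb soon after a cell receives a hormone, a growth factor or mechanical stress. In granulosa cells of the rat, Klf4 is known to respond to luteinizing hormone.

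Tumors had higher signals of 3 of the 9 members that could be tested, Klf2, Klf3 and Klf7, and no member passed the test in the other direction. Klf2 showed the greatest difference of the 9, a log2 fold change of 1.70 (limma SE 0.36, n = 3 per group), followed by Klf7 at 0.83 (SE 0.13) and Klf3 at 0.75 (SE 0.18). Klf4, Klf6, Klf9, Klf10, Klf13 and Klf15 did not pass, and Klf5 stayed under the signal minimum. Calls were made with limma where the p adjusted by Benjamini-Hochberg was under 0.05. Across all 11611 tested genes 27.2% were called, 14.5% as higher and 12.6% as lower. The 3 members called were all higher, so 14.5% is the share to set beside 3 of 9. A departure from that share was not tested. At an unadjusted p under 0.05, 4 members were higher and 0 lower. The share of all genes at that threshold was not counted, so such counts, here and below, have no background beside them. The median log2 fold change of the 9 members was 0.54, and that of all tested genes was -0.0049. All these directions hold with each array scaled to 1 trimmed mean. Scaled to the bacterial hybridisation controls instead, the median of all genes moved to -0.98, and Klf3 and Klf7 turned to -0.25 and -0.14. No member was then called higher, and Klf6, Klf10 and Klf15 were called lower. Of all 11762 genes tested with this scaling, 384 were called higher and 7753 lower. Relative to the median of -0.98, Klf2 was then at 1.7, Klf7 at 0.84, Klf3 at 0.73 and Klf6 at -0.38.

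The stretches of 250 bases that end at the annotated transcription starts of Klf2, Klf3 and Klf7, the members that passed, and of Klf6, the member whose tumor signals all lay below wild type, are shown for the letters that bear on this family. Sequences are from RefSeq on GRCm38.p6, written along the gene's own strand: chr8:72318812-72319061 (plus) for Klf2, chr5:64803271-64803520 (plus) for Klf3, chr1:64121390-64121639 (minus) for Klf7 and chr13:5861239-5861488 (plus) for Klf6. Capitals mark matches, on either strand, to GGGCGG (the GC box that Sp and Klf proteins bind), to CACCC, to CCAAT and to the MEF2 element.
Klf2: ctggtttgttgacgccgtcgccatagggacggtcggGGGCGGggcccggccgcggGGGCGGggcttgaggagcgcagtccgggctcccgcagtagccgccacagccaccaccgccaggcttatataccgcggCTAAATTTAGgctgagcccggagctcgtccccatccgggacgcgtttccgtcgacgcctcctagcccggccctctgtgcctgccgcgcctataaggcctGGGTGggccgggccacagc
Klf3: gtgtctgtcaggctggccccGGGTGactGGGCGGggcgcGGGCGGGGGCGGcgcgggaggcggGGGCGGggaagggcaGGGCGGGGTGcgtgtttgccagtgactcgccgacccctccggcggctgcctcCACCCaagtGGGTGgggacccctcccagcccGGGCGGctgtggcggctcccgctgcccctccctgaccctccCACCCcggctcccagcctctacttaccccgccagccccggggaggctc
Klf7: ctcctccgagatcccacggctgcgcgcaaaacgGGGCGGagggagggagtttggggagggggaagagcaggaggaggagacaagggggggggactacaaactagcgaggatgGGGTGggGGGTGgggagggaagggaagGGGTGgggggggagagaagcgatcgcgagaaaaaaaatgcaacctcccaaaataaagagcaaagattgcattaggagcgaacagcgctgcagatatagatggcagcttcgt
Klf6: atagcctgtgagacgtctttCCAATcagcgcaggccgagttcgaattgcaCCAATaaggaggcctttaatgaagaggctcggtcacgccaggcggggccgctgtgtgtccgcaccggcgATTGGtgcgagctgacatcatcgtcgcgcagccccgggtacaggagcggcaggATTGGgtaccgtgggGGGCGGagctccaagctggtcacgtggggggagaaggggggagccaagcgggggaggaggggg

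The Klf2 stretch was the one Klf promoter with a MEF2 element, CTAAATTTAG, whose first base lies 118 bases before the start. In endothelial cells this kind of element is the known site through which the kinase Erk5 and Mef2 factors switch Klf2 on. It occurred in 2.92% of the 32851 promoters searched over the same 250 bases. GGGCGG was present in 7 of the 8 Klf promoters found in the RefSeq table, against 32.7% of all promoters, and CACCC in 6 of 8, against 52% of all. The Klf3 stretch held 6 GGGCGG and 5 CACCC matches, some of which overlap by a base, whereas the Klf6 stretch held 1 and 0 and carried 4 CCAAT matches. CCAAT was found in 4 of the 8 Klf promoters and in 33.8% of all, and the CArG box, the serum response element core, in 0 of the 8 and in 1.47% of all. Klf promoters were rich in G and C, from 59.2% in Klf7 to 78.4% in Klf3, and the median over all promoters was 52.4%. A match describes letters and shows no binding.

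Signals are linear array intensities and are given per array. The trimmed mean was 500 on all 6 arrays, and 22599 to 23695 probe sets reached a signal of 100 in tumors, against 22923 to 25049 in wild type. As a measure of RNA quality, the Actb control read from the 3′ end exceeded that read from the 5′ end by 0.57 to 0.97 (log2) in tumors and by 0.33 to 0.67 in wild type. The same difference for Gapdh was -0.47 to -0.24 in tumors and -0.46 to -0.32 in wild type. Tissue was set against isolated cells and only the wild-type females were primed. The groups' signals also came from different software, so genotype, tissue makeup, priming and processing cannot be told apart. In such bulk samples a difference in the number of cells of a type and a difference in RNA per cell cannot be separated either. Of 9 tested granulosa genes 1 rose, Amh, and 4 fell, while 4 did not pass. Across all tested genes 14.5% were called higher and 12.6% lower. Foxl2, a granulosa transcription factor gene that did not pass, read 6439 to 8633 in tumors and 9843 to 11642 in wild type. The follicle-stimulating hormone receptor gene Fshr, which fell, read 248 to 1033 in tumors and 5185 to 6135 in wild type, and the inhibin and activin subunit genes Inhba and Inhbb and the estrogen synthesis gene Hsd17b1 fell too. Foxl2, Fshr, Inhbb and Hsd17b1 were named after their values were seen. Wild-type sample 2 stood apart in immediate-early genes, as set out with Klf4, and the results of Klf2, Klf3 and Klf4 are given with and without it.

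**Figure D1:**
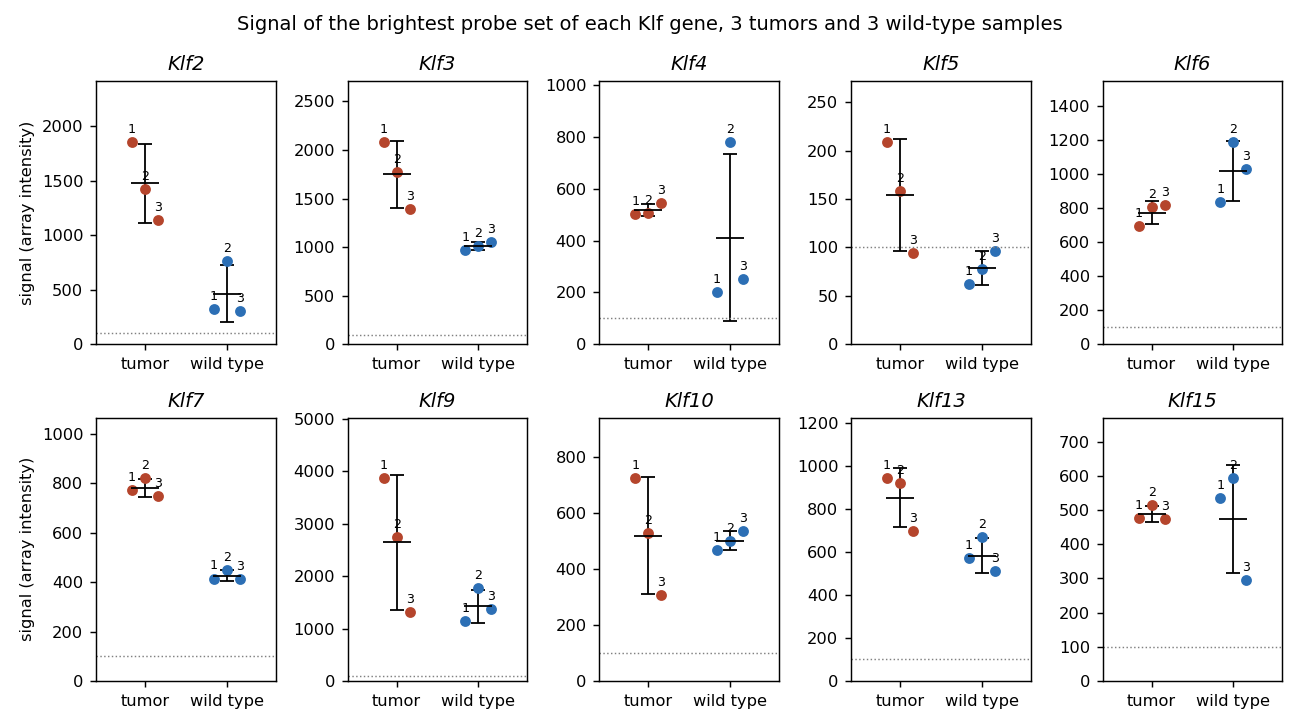
Signals (array intensity, linear axes from 0) of the brightest probe set of each Klf gene in 3 tumors and 3 wild-type samples, each point labelled with its sample number; black bars are the mean and SD, and the dotted line is the signal minimum of 100. All tumor points lie above all wild-type points for Klf2, Klf3, Klf7 and Klf13 and below them for Klf6, directions that for Klf3, Klf7 and Klf13 turn when arrays are scaled to hybridisation controls.

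Among the activators, Klf2, which keeps endothelial cells and lymphocytes quiescent, read 1859, 1426 and 1144 in tumors 1, 2 and 3, against 322, 764 and 305 in wild-type samples 1, 2 and 3. Every tumor lay above every wild-type sample, and wild-type sample 2 was the nearest to the tumors. The means were 1476 ± 360.2 in tumors and 464 ± 260.0 in wild type (SD, n = 3 each), with a limma adjusted p of 0.0144. The log2 fold change was 2.10 without wild-type sample 2 (limma adjusted p = 0.00615). Without wild-type sample 1 it was 1.51 and no longer passed (limma adjusted p = 0.0577), and over the fits without any 1 sample it passed in 5 of 6. Klf2 was measured by 1 probe set, so no other probe set checks it.

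Klf7, known for its part in neuron development, had even values in both groups. It read 775, 820.0 and 749 in tumors, against 415, 450.5 and 412 in wild type, so the spread within each group was small beside the gap between them. Its mean was 781 ± 36.1 in tumors and 426 ± 21.5 in wild type (SD, n = 3 each; limma adjusted p = 0.00543). Of its 4 probe sets all passed the signal minimum and had positive log2 fold changes, from 0.57 to 0.88, and 2 were called when each probe set was tested. The second of these read 642, 522 and 635 in tumors and 296, 269.7 and 376 in wild type. Klf7 kept its call in all 6 fits without 1 sample, with limma adjusted p from 0.00887 to 0.033.

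Klf4, a regulator of epithelial differentiation and one of the reprogramming factors, read 504, 506 and 546 in tumors and 203, 782 and 252 in wild type. The tumor values were nearly equal, while wild-type sample 2 exceeded every tumor and the other wild-type samples lay below every tumor. The SD of the log2 values was 0.06 in tumors, at the 5.91 percentile of all tested genes, and 0.97 in wild type, at the 99.4 percentile. Klf4 did not pass (log2 fold change 0.54, SE 0.44, limma adjusted p = 0.394). Without wild-type sample 2 the log2 fold change was 1.09 and passed (limma adjusted p = 0.0115). Its other probe set showed the same arrangement, at 191, 177 and 207 in tumors and 78.5, 239 and 16.8 in wild type.

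Wild-type sample 2 was also the highest wild-type sample for 7 of the 9 tested members, against 42.3% of all tested genes. Its signal was at least 2 times that of both other wild-type samples in Klf2 and Klf4, a gap found in 0.878% of tested genes. Immediate-early genes, which a cell transcribes within minutes of a stimulus, showed that gap in 9 of 17 cases. Fos, of the AP-1 complex, read 1004, 1290 and 2136 in tumors, against 5795, 20398 and 5115 in wild-type samples 1, 2 and 3, and it fell (log2 fold change -2.56, SE 0.54, limma adjusted p = 0.0148). Summed over the 17 genes, the signal was 24002 to 26808 in tumors, while wild-type sample 2 reached 83434 and the other wild-type samples 33923 and 32241. Of these 17 genes 1 rose, Ier5, and 3 fell, Fos, Ier2 and Fosl2, a share of calls near the 27.2% of all tested genes. The part of this array difference in the Klf4 and Klf2 values was not tested beyond leaving the sample out.

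**Figure D2:**
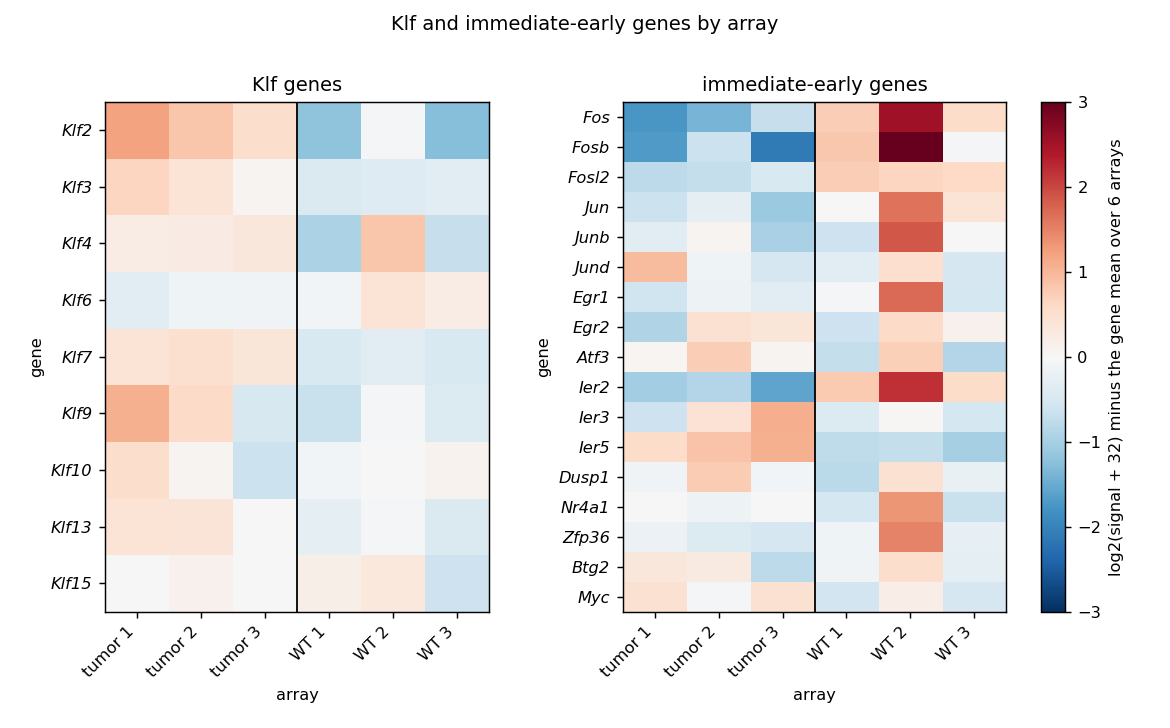
Colour gives log2(signal + 32) minus the gene's mean over the 6 arrays, for the 9 tested Klf genes (left) and 17 immediate-early genes (right), with tumors 1 to 3 left of the black line and wild-type (WT) samples 1 to 3 right of it. Wild-type sample 2 is the reddest wild-type column for Fos, Fosb, Jun, Junb, Egr1, Ier2, Nr4a1 and Zfp36 and also for Klf2 and Klf4, while tumor 1 is the reddest tumor column for Klf2, Klf3, Klf9 and Klf10.

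Klf6, an early-response gene that restrains growth in several tissues, was the only tested member whose tumor signals all lay below wild type. It read 695, 804 and 816 in tumors, against 836, 1189 and 1027 in wild type, and the gap between the nearest samples of the groups was small. The test was not passed (log2 fold change -0.37, SE 0.17, limma adjusted p = 0.151). Without single samples the log2 fold change ran from -0.50 to -0.26 and passed in 0 of 6 such fits. All 4 passing probe sets of Klf6 had negative log2 fold changes, from -0.78 to -0.37, and 3 of them had no overlap between groups, but 0 were called. The probe set at -0.78 read 337, 279 and 283 in tumors and 385, 822 and 486 in wild type, again with wild-type sample 2 highest. With the mean over a gene's probe sets in place of the brightest, Klf6 was called lower (log2 fold change -0.54, limma adjusted p = 0.0493).

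Klf5, which promotes proliferation of epithelial and smooth muscle cells, did not reach a signal of 100 on 3 arrays with any of its 3 probe sets and was not tested. Its brightest probe set read 209, 158 and 94.5 in tumors, against 62.1, 77.9 and 96.7 in wild type, so tumor 3 fell inside the wild-type range. Under quantile normalization it reached the minimum and had a log2 fold change of 0.79 (limma adjusted p = 0.0384). With a signal minimum of 50 the value was 0.71 (limma adjusted p = 0.108). Median scaling gave 0.78 (limma adjusted p = 0.0482), and scaling to hybridisation controls gave -0.05 (limma adjusted p = 0.902), with the sign turned.

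Klf3, the CtBP-binding repressor, read 2085, 1771 and 1391 in tumors and 974, 1009 and 1052 in wild type with its brightest probe set. The wild-type values lay close together and every tumor lay above them (limma adjusted p = 0.0211). Without single samples the log2 fold change ran from 0.62 to 0.91, and the call held in 2 of 6 such fits, those without tumor 1 and without tumor 3. It was lost without tumor 2 (limma adjusted p = 0.0592) and without wild-type sample 1 (0.0824), 2 (0.0568) or 3 (0.0582). The probe sets of Klf3 went in both directions: of 6 that passed the minimum, 4 had positive and 2 negative log2 fold changes. The lowest, at -0.61 (SE 0.23), read 140, 228 and 115 in tumors and 263, 265 and 234 in wild type, and it did not pass (limma adjusted p = 0.0963 over probe sets). Averaged over its probe sets, Klf3 had a log2 fold change of 0.35 and was not called (limma adjusted p = 0.258). The files do not say which Klf3 transcripts each probe set reads.

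In the Sin3-binding group, Klf9, which responds to thyroid hormone and glucocorticoids, differed most between tumors. It read 3865, 2753 and 1310 in tumors 1, 2 and 3, against 1148, 1769 and 1370 in wild type. Tumors 1 and 2 exceeded all wild-type samples and tumor 3 lay within their range. The SD of the log2 values was 0.79 in tumors, at the 95 percentile of tested genes, and the log2 fold change of 0.76 (SE 0.38) did not pass (limma adjusted p = 0.182). Without tumor 3 it was 1.20 and passed (limma adjusted p = 0.0176). Tumor 1 was highest and tumor 3 lowest in each of the 5 passing Klf9 probe sets, of which 4 had positive and 1 negative log2 fold changes.

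Klf10, first described as a gene induced early by TGF-beta, repeated that order of tumors, and wild type lay inside the tumor range. It read 722, 526 and 306 in tumors, against 465, 499.6 and 533 in wild type (log2 fold change -0.02, SE 0.28, limma adjusted p = 0.961). The 95% interval of that log2 fold change ran from -0.69 to 0.65. Over all 9 tested members, tumor 1 was highest and tumor 3 lowest of the tumors in 5, Klf2, Klf3, Klf9, Klf10 and Klf13, against 20.1% of all tested genes.

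Klf13, which also recruits Sin3 and is known from T lymphocytes, read 943, 921 and 697 in tumors and 572, 669.6 and 511 in wild type. The groups did not overlap, but the lowest tumor and the highest wild-type sample were close, and the gene did not pass (log2 fold change 0.52, SE 0.18, limma adjusted p = 0.071). Its second probe set had a wider gap, at 782, 776 and 982 in tumors and 297, 208 and 506 in wild type. That probe set was called when each was tested (log2 fold change 1.32, SE 0.30, limma adjusted p = 0.0188). Without tumor 3 the gene's log2 fold change was 0.65 and passed (limma adjusted p = 0.034). Averaged over its probe sets, Klf13 passed with a log2 fold change of 0.92 (limma adjusted p = 0.00561).

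Klf15, a glucocorticoid-induced regulator of amino acid and glucose use, read 476, 515 and 473 in tumors, against 536, 593 and 294 in wild type. Its tumor values were even and lay inside the wild-type range, which was set by the low wild-type sample 3. The log2 fold change was 0.09 (SE 0.25, limma adjusted p = 0.813), with a 95% interval from -0.50 to 0.69. It changed sign to -0.20 without wild-type sample 3.

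Counted by probe set, 26 of the 34 passed the signal minimum, 18 with a positive and 8 with a negative log2 fold change. Of these 26, 5 were called higher, 2 of Klf7 and 1 each of Klf2, Klf3 and Klf13, while 24.1% of the 21001 tested probe sets were called, 11.7% as higher and 12.4% as lower. In limma 0 of the 26 were called lower, and 3 had an unadjusted p under 0.05 in that direction, 2 of Klf6 and 1 of Klf3. The higher count ranged from 1, without wild-type sample 1, to 10, without tumor 3. Among genes, the groups did not overlap in 5 of the 9 members, against 46.3% of tested genes. Tumors lay above in 4 of them, against 23.7%, and below in 1, against 22.6%. The higher count of members was 1 without wild-type sample 1, where Klf7 alone stayed called, and 5 without tumor 3. Over all tested genes the higher count was 866 and 1704 in these fits, against 1686 with all samples.

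**Figure D3:**
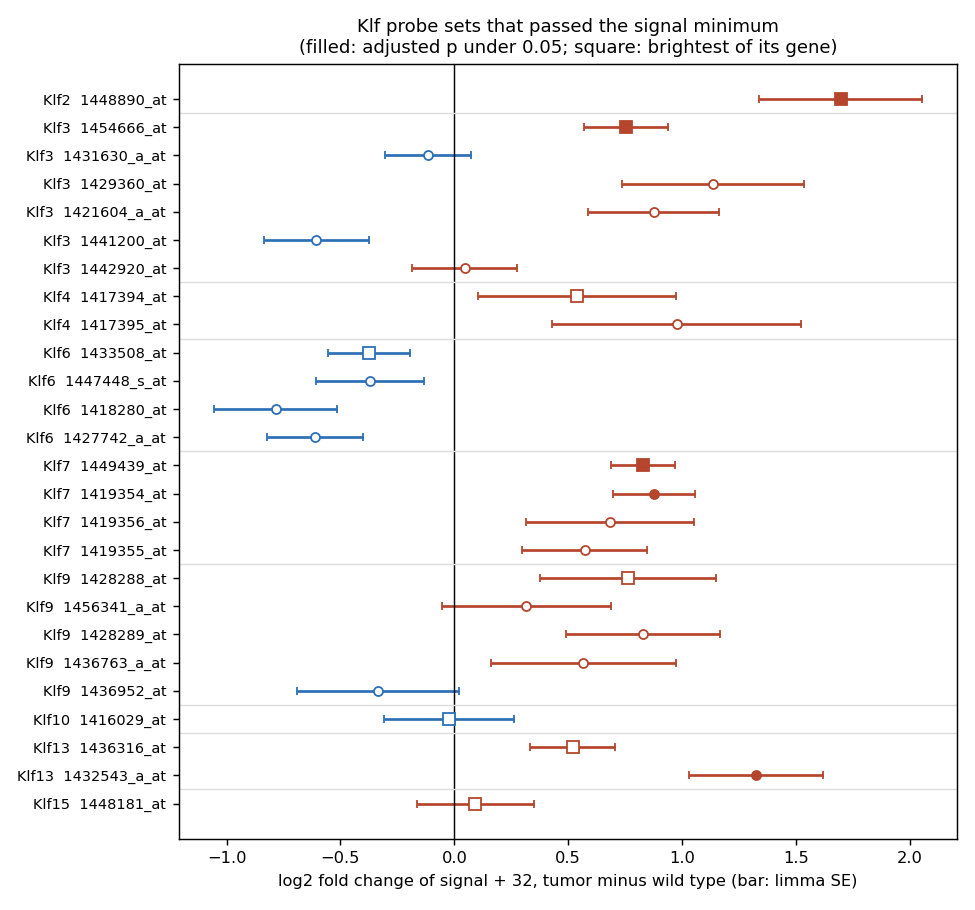
Log2 fold change of signal + 32, tumor minus wild type, with limma's SE as the bar, for the 26 Klf probe sets that passed the signal minimum (3 arrays per group); filled symbols have an adjusted p under 0.05 over all tested probe sets and squares are the brightest probe set of their gene. Klf7 and Klf6 probe sets keep 1 side of 0, Klf3 and Klf9 probe sets lie on both sides, and scaling to hybridisation controls moves the median of all genes by -0.98.

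The other Klf and Sp genes showed no call. Of 15 listed, 13 had a probe set and 7 were tested. In limma 0 rose and 0 fell, while 27.2% of all tested genes were called. At an unadjusted p under 0.05, 2 of the 7 were higher and 0 lower. Sp1, a ubiquitous activator that binds the same GC boxes, read 4895, 4190 and 5636 in tumors and 3093, 1199 and 3132 in wild type (log2 fold change 1.09, SE 0.37, limma adjusted p = 0.0675). Klf12, the CtBP-binding relative of Klf3, named here after its values were seen, read 487, 125 and 127 in tumors and 67.6, 46.1 and 100.2 in wild type (log2 fold change 1.22, limma adjusted p = 0.1). Tumor 1 was again the highest tumor, as it was in 31.9% of all tested genes.

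Among 13 tested cofactors and ubiquitin ligases of Klf proteins, 2 rose, 1 fell and 10 did not pass, with a median log2 fold change of 0.17. That share of calls is near the 27.2% of all tested genes. Ep300, an acetyltransferase that works with the activating members, rose by 0.62 (SE 0.15, limma adjusted p = 0.0254). Hdac3, a histone deacetylase, fell by 0.55 (SE 0.15, limma adjusted p = 0.0345). Ctbp1, the corepressor of Klf3, and Sin3a, that of Klf9 and its relatives, both named after their values were seen, had log2 fold changes of 0.06 and 0.20 and did not pass. Without 1 sample, Ep300 kept its call in 2 of 6 fits, with log2 fold changes from 0.52 to 0.68. It was lost without tumor 1 (0.52), tumor 2 (0.65), wild-type sample 1 (0.57) and wild-type sample 3 (0.60). Hdac3 kept its call only without tumor 1, and was at -0.50 without tumor 2, -0.52 without tumor 3 and -0.53, -0.49 and -0.62 without wild-type samples 1, 2 and 3.

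Upstream of Klf2 and Klf4, 1 of 6 genes of the Erk5 and Mef2 route rose and 5 did not pass, with a median of 0.20, while 14.5% of all tested genes were called higher. The 5 that did not pass were named after their values were seen. Mapk7, the Erk5 gene, was at -0.21 and Map2k5 at -0.25, while Mef2a, Mef2c and Mef2d were at 0.29, 0.11 and 0.56. Map3k3, a kinase at the head of that route, read 911, 854 and 741 in tumors, against 488, 525 and 548 in wild type (log2 fold change 0.65, SE 0.14, limma adjusted p = 0.0176). Its call was lost without tumor 2 (0.63) and without wild-type sample 1 (0.60). Scaled to hybridisation controls, Map3k3 and Ep300 turned to -0.33 and -0.39. Of 8 tested genes known as Klf2 or Klf4 targets in endothelium, 3 rose, 1 fell and 4 did not pass. Across all tested genes 14.5% were called higher and 12.6% lower. The list does not separate induced from repressed targets, so its counts have no single direction. Tek, also among the endothelial markers, rose, at 0.69, while S1pr1, Vcam1 and Edn1, at 1.01, -0.30 and -0.84, did not pass. These genes were named after their values were seen. Ptgds, a prostaglandin D synthase gene, read 7279, 5337 and 5102 in tumors, against 479, 305 and 558 in wild type, and rose by 3.65 (SE 0.25, limma adjusted p = 0.00031). Nppc, the gene of C-type natriuretic peptide, which granulosa cells also make, read 144, 100.4 and 154 in tumors, against 4099, 3424 and 3695 in wild type, and fell by 4.53 (SE 0.18, limma adjusted p = 0.000107). Nos3, the endothelial nitric oxide synthase gene, and Thbd, thrombomodulin, are textbook Klf2 targets and were named after their values were seen. Thbd read 1171, 842 and 1004 in tumors and 286, 249.9 and 270.4 in wild type and rose by 1.78 (SE 0.16), while Nos3 had a log2 fold change of 0.02 and did not pass (limma adjusted p = 0.98).

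Markers of endothelium, macrophages, smooth muscle and pericytes, and fibroblasts were mostly called higher in tumors, while those of epithelium and oocytes were not. Across all tested genes 14.5% were called higher and 12.6% lower. Of 13 endothelial markers tested 8 rose, 0 fell and 5 did not pass (at an unadjusted p under 0.05, 11 higher and 0 lower in limma). Their summed signal was 7033 to 13854 in tumors and 2269.7 to 2857 in wild type. None of them was at 0, and Erg, Flt1 and Sox17 lay below 100 on all wild-type arrays. Over tumors 1, 2 and 3 the endothelial sum was 7033, 13854 and 8174, and the macrophage sum 17197, 14237 and 14343. The smooth muscle and pericyte sum was 35482, 37748 and 20455, and the fibroblast sum 61150, 71165 and 45186. Klf2 read 1859, 1426 and 1144 in the same tumors. Sox18, which encodes a transcription factor of endothelium, had a log2 fold change of 2.81 (SE 0.32) and was among those that rose. All 12 tested macrophage markers rose, with sums of 14237 to 17197 in tumors and 2429 to 2868 in wild type. All 10 smooth muscle and pericyte markers rose, with sums of 20455 to 37748 in tumors and 5578 to 7112 in wild type, and 9 of 10 fibroblast markers did, at 45186 to 71165 against 14303 to 17427. C1qc, a macrophage complement gene, rose by 3.50 (SE 0.55), Rgs5, a pericyte gene, by 3.73 (SE 0.55) and Postn, a fibroblast matrix gene, by 3.57 (SE 0.43). The part of these cells in the Klf2, Klf3 and Klf7 differences was not tested.

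Of 12 tested genes of the glucocorticoid route, which induces Klf9 and Klf15, 3 rose, 1 fell and 8 did not pass, a share of calls near the 27.2% of all tested genes. Hsd11b1, which regenerates active glucocorticoid, read 295, 931 and 315 in tumors and stayed below 100 in wild type, at least 4.42-fold higher (limma adjusted p = 0.00885). The fold is a lower bound, with each wild-type array set to 100. Ddit4, a stress-responsive inhibitor of mTOR signalling, fell by 1.00 (SE 0.19). Fkbp5, a standard glucocorticoid-induced gene named after its values were seen, read 7173, 4865 and 4799 in tumors and 4449.7, 4623 and 4458 in wild type and did not pass. Tumor 1 was the highest tumor for Fkbp5, as for Klf9 and for 31.9% of all tested genes, whereas Hsd11b1 was highest in tumor 2. Of 9 tested genes of the TGF-beta route, which induces Klf10, 4 rose, 2 fell and 3 did not pass. The list held the ligand gene Tgfb1 and the receptor genes Tgfbr1 and Tgfbr2 beside response genes. Among the response genes Pmepa1, Ski and Bambi rose, Tgif1 fell, and Skil and Smad7 did not pass. Tgfb1 did not pass either. Apart from the receptor genes, the genes of this list were named after their values were seen. The receptor gene Tgfbr2 rose by 1.80 (SE 0.35), and its partner Tgfbr1 fell by 0.62 (SE 0.15). The Tgfbr1 call was lost without tumor 1 (-0.61) and without wild-type sample 1 (-0.68), 2 (-0.53) or 3 (-0.65).

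Of 6 tested cell cycle genes that Klf4 or Klf5 controls in other cells, 1 rose, 1 fell and 4 did not pass, again near the 27.2% of all tested genes that were called. Ccnd1, the cyclin D1 gene, rose by 1.22 (SE 0.24, limma adjusted p = 0.011), and Ccne1, cyclin E1, fell by 0.72 (SE 0.16, limma adjusted p = 0.0189), a call lost without tumor 2 (-0.71) and without wild-type sample 1 (-0.63). Of 8 adipogenic genes linked to Klf5 and Klf15, 3 rose, 3 fell and 2 did not pass. Fabp4, a fatty acid carrier gene of adipocytes, macrophages and endothelium, read 12178, 746 and 18320 in tumors and 85.8, 156 and 85.8 in wild type. Its log2 fold change was 5.34 (SE 1.09, limma adjusted p = 0.0129), with a spread of the tumors far wider than that of any Klf gene. Cebpa, an adipogenic and granulosa transcription factor gene, fell by 1.90 (SE 0.56, limma adjusted p = 0.0443). Its call held only without tumor 1. It was at -1.34 without tumor 2, -1.76 without tumor 3 and -1.88, -1.88 and -1.94 without wild-type samples 1, 2 and 3.

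The genes nearest to Klf2 in pattern, by the root mean square difference of log2 values centred on their mean over the 6 arrays, were Rtn4r, Arap2 and Syne1. Rtn4r, a receptor gene of myelin inhibitors, lay at a difference of 0.156 and read 401, 269 and 214 in tumors, against 40.2, 105 and 49.9 in wild type. Arap2, an Arf GTPase-activating protein gene, lay at 0.197 and read 656, 414 and 449 in tumors, against 106, 264 and 131 in wild type. Syne1, which encodes a nuclear envelope protein, lay at 0.206 and read 571, 582 and 362 in tumors, against 119.7, 292 and 129.8 in wild type.

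**Figure D4:**
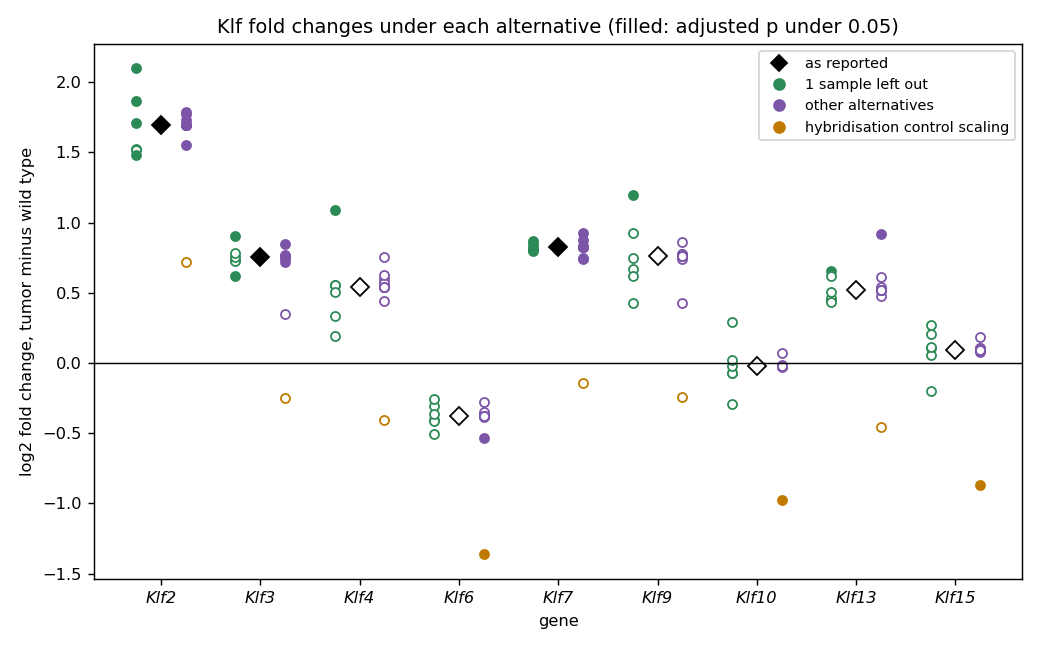
Log2 fold change (tumor minus wild type) of the 9 tested Klf genes as reported (black diamonds), in 6 fits without 1 sample each (green), under the other alternatives (purple) and scaled to hybridisation controls (orange); filled symbols have an adjusted p under 0.05. Klf7 stayed filled in each fit but the one scaled to hybridisation controls, Klf4 was filled once, without wild-type sample 2, and the orange points lie below 0 for all genes but Klf2.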

How the data were processed

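Total RNA of each sample was hybridised to 1 Affymetrix array. The authors deposited linear intensities, 1 signal per probe set, made with GCOS for tumors and MAS5 for wild type per the submitters' processing notes, with no version given. Each array was scaled to a trimmed mean of 500 (2% cut at each end). Signals were tested as log2(signal + 32), a scale that understates changes of dim genes. Probe sets that reached 100 on 3 or more of the 6 arrays were kept, and the brightest kept probe set stood for its gene. Tests were 2-sided, from lmFit and eBayes of limma 3.58.1 (R 4.3.3), with p adjusted by Benjamini-Hochberg over all 11611 genes, with calls under 0.05. Values are signals, with means ± SD over 3 arrays. The number of arrays limits precision. Nothing says that tumors or pools were split. The p-values set the group difference against the spread between these samples, which are unlike units, tumors and pools of 2 to 3 females.

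Probe sets were named from GEO's platform annotation: beside 64 controls, 34945 carried 1 symbol, 932 several and 9160 none. Of the 10 members 8 had a RefSeq promoter. Fits were tested on simulated data. Besides the members, 20 gene lists were described by counts and medians, without a list test. Members and lists were chosen with earlier results of these data known. Named genes are the members and, per list, the called gene of the greatest change and the greatest in the other direction (or, with 0 called, that of the smallest p), plus the 3 genes nearest to Klf2. Alternatives were pseudocounts of 1 and 100, minima of 50, 200 and none, quantile, median and hybridisation control scaling, other probe set rules, a variance trend, a replicate block and leaving out each sample. Tables and figures used Python 3.11.15, pandas 2.3.3 and matplotlib 3.10.9.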

Additional observations from a re-analysis of the deposited data

How the results depend on the processing

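Tumor and wild-type replicate numbers share no stated origin, so the samples were not treated as paired. Deviations of same-numbered samples correlated at -0.0449, 0.0276 and 0.09, and 3 of 6 samples correlated best with their own number. With 3 samples per group these values cannot exclude a pairing. With the replicate block 1464 genes were higher and 1138 lower, against 1686 and 1468 without it, and the Klf counts were unchanged at 3 and 0. Without 1 sample, the counts over all genes ranged from 866 to 1704 higher and 662 to 1409 lower, the lowest of each without wild-type sample 1, with 1092 and 880 without wild-type sample 3. Klf genes called higher ranged from 1 to 5 and lower from 0 to 0, Klf probe sets from 1 to 10 and 0 to 2. Scaled to hybridisation controls, 384 genes were higher and 7753 lower, Klf genes 0 and 3, Klf probe sets 0 and 10. In that scaling Klf3 (-0.25), Klf4 (-0.41), Klf7 (-0.14), Klf9 (-0.24), Klf13 (-0.46), Klf15 (-0.87), Ep300 (-0.39) and Map3k3 (-0.33) turned below 0. Other sign changes were those of Klf10, to 0.069 with median scaling and within -0.29 to 0.29 without 1 sample (0.02 without wild-type sample 3), of Klf15, within -0.20 to 0.27 without 1 sample, and of Alas2, within -1.62 to 0.34, above 0 without tumor 1. With median scaling 916 genes were lower and higher calls made up 65.4% of calls, against 53.5%. With every probe set tested 2597 were lower, and with the mean over probe sets 1 Klf gene was. Without a signal minimum Klf3 missed the threshold (limma adjusted p = 0.0512). The causes of these shifts were not tested. Over the 31 named genes called, 453 of 526 alternative values kept direction and call and 4 changed sign. Low signals limit Klf5, whose values lie around the minimum of 100.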

Other observations

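Among the granulosa genes that fell, Inhba, an activin subunit gene, read 273, 548 and 1241 in tumors, against 28212, 20087 and 30806 in wild type (log2 fold change -5.42, SE 0.48). Inhbb, the gene of another such subunit, had a log2 fold change of -3.95 (SE 0.18), Fshr of -3.23 (SE 0.45) and Hsd17b1 of -1.19 (SE 0.15). Amh, the anti-Mullerian hormone gene of growing follicles, read 2979.7, 2209 and 2190.4 in tumors and 456, 1658 and 253 in wild type (log2 fold change 2.00, SE 0.59, limma adjusted p = 0.0443). Wild-type sample 2 was the high sample here too, and the call held only without that sample (2.72). It was at 1.85, 2.07 and 2.07 without tumors 1, 2 and 3 and at 1.83 and 1.44 without wild-type samples 1 and 3. Of 3 tested theca genes 2 rose and 1 fell, while 27.2% of all tested genes were called. Gli1, a Hedgehog effector, rose at least 6.24-fold, and Cyp17a1, an enzyme of androgen synthesis, fell by 4.85 (SE 0.62).

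Of 5 tested oocyte genes 4 fell, while 14.5% of all tested genes were called higher and 12.6% lower. Zp3, of the zona pellucida, was below 100 on all tumor arrays and read 192 to 340 in wild type, so it was at least 2.67-fold lower in tumors (limma adjusted p = 0.00698). Of 9 epithelial genes 0 rose, 1 fell and 8 did not pass (1 higher and 3 lower at an unadjusted p under 0.05 in limma), with Upk3b, a mesothelial gene, at a log2 fold change of -1.05 (SE 0.29). The Upk3b call was lost without tumor 2 (-1.07), tumor 3 (-0.79), wild-type sample 2 (-0.95) and wild-type sample 3 (-0.95). Of 2 tested adipocyte genes, both also on the adipogenic list, Fabp4 rose and Lpl did not pass. The lymphocyte and erythroid lists had 1 tested gene each, Cd8a and Alas2, and neither passed.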
